A study of Mus musculus with 12 samples.

Results

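Kupffer cells are the macrophages that live in the sinusoids of the liver, where they clear bacteria, complement-coated particles, worn red cells and apoptotic debris from portal blood. They keep themselves through signals of their niche, among them CSF1 receptor ligands and Notch and TGF-beta family ligands. When resident cells are lost or lipid accumulates, monocytes from the blood can enter the liver and become macrophages, and a part of these take on a lipid-associated state marked by Trem2. The transcripts of 10 such genes were examined in whole liver. Clec4f, Vsig4, Timd4 and Cd5l mark resident Kupffer cells, and Marco, Adgre1, Csf1r, Cd68, C1qa and Trem2 mark macrophages more broadly or, for Trem2, the lipid-associated state. The genes were chosen by name for these roles, with earlier results of these data known. They are 10 of the 54232 genes in the count table, and all 10 were among the 17509 genes with enough reads to be tested.

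The livers came from male C57Bl/6J mice, 10 weeks old and fasted for 4 h, 6 of them WT and 6 lacking Marchf6 in the liver (LKO). Marchf6 encodes an E3 ubiquitin ligase of the endoplasmic reticulum. According to the study's methods both groups were littermates homozygous for a floxed Marchf6 allele (fl/fl), and the LKO mice also carried Cre under the albumin promoter, which is active in hepatocytes, so that the macrophages themselves are not the cells in which this Cre is driven. The question the design puts to these genes is whether the macrophage transcripts of the liver differ when hepatocytes lack Marchf6. Each sample is the RNA of a whole liver, so a higher level can come from more cells of a type or from more RNA per cell, and these cannot be told apart here.

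The libraries held 14860414 to 22111926 counts. Levels are given below as CPM, each count divided by its library's total and scaled to a common total, after TMM (trimmed mean of M-values) scaling between libraries. In all, 75 of 17509 tested genes, 0.428%, had an adjusted p under 0.05 by the quasi-likelihood test of edgeR, of which 48 rose and 27 fell in LKO livers. Counts over Marchf6, named March6 in the annotation, lay between 226 and 247 CPM in WT livers (median 244) and between 204 and 249 CPM in LKO livers (median 227). The groups overlapped for it, and its log2 fold change was -0.09 (SE 0.06, adjusted p = 0.585 by edgeR), although counts over the whole gene also take in exons outside the deleted part and so do not check the deletion. LKO liver 1 stood apart. It was the highest of the LKO livers for 23.5% of tested genes, against at most 15.7% for each of the others. Many values that rest on it are given with and without it. The library numbers ran through the WT livers and then through the LKO livers, so library order and genotype cannot be told apart.

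The resident genes are shown first by the DNA just before their starts, since they varied together between livers, as described further on. Upstream windows of the 4 genes are printed 5′ to 3′ on the gene's strand, from RefSeq for GRCm38.p6, each 250 bases long except that of Clec4f, which was shortened to 179 bases to leave out transcribed sequence. Capitals mark matches to a short motif, searched on both strands. The PU.1 motif is GAGGAA, a core of the sites that the factor PU.1 prefers, and on the reverse strand it appears in these lines as TTCCTC. PU.1 is a known regulator of macrophage genes.
Clec4f, chr6:83656188-83656366, minus strand: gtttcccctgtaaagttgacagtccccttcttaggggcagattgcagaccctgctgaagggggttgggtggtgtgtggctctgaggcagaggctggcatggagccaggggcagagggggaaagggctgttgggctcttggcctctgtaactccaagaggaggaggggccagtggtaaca
Vsig4, chrX:96293439-96293688, minus strand: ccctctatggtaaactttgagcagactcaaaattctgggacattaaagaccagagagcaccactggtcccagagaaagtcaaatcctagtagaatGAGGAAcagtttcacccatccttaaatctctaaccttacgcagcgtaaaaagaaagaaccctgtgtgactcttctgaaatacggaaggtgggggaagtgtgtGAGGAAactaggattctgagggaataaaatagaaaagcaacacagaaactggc
Timd4, chr11:46810549-46810798, plus strand: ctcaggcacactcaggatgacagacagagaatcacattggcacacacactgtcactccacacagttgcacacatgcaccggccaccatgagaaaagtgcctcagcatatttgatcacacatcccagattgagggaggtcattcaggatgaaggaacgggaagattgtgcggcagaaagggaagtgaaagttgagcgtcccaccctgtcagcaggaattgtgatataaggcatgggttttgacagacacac
Cd5l, chr3:87357631-87357880, plus strand: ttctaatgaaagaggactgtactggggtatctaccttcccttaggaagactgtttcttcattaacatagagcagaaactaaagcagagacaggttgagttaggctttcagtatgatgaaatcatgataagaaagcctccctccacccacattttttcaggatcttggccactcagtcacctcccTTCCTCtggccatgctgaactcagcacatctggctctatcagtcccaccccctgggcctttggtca
The PU.1 motif was found before 2 of the 4 resident genes, Vsig4 and Cd5l, and these letters were not in the windows of Clec4f and Timd4. In all 32851 windows of 250 bases, 23.3% held the motif on either strand. Windows were found for 7 of the 10 genes, and it was also before Marco, Cd68 and Trem2. These matches describe letters in a window and nothing of what binds there.

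Tested gene by gene, the 10 did not pass the threshold across all genes in LKO livers, but their log2 fold changes all lay on the higher side. None of the 10 had an adjusted p under 0.05 in edgeR's quasi-likelihood test, where 0.274% of all genes were called higher. The log2 fold change (LKO minus WT) was above 0 in 10 of 10, beside 50.0% of all genes tested, and above 0.3 in 9 of 10, beside 13.7%. The median log2 fold change was 0.43, a fold of 1.35, and without LKO liver 1 it was 0.41, beside a median of 0.00 over all genes tested. Before adjustment 8 of 10 had p under 0.05, beside 6.33% of all genes in the higher direction, and 5 of 10 had p under 0.01, beside 2.18%. All 6 LKO livers lay above the WT mean for 6 of the 10 genes, beside 7.14% of all genes. The groups overlapped for all 10, where 0.748% of all genes had every LKO liver above every WT liver. Since the 10 genes were chosen with earlier results known and many of them varied together between livers, these shares are a description.

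**Figure D1:**
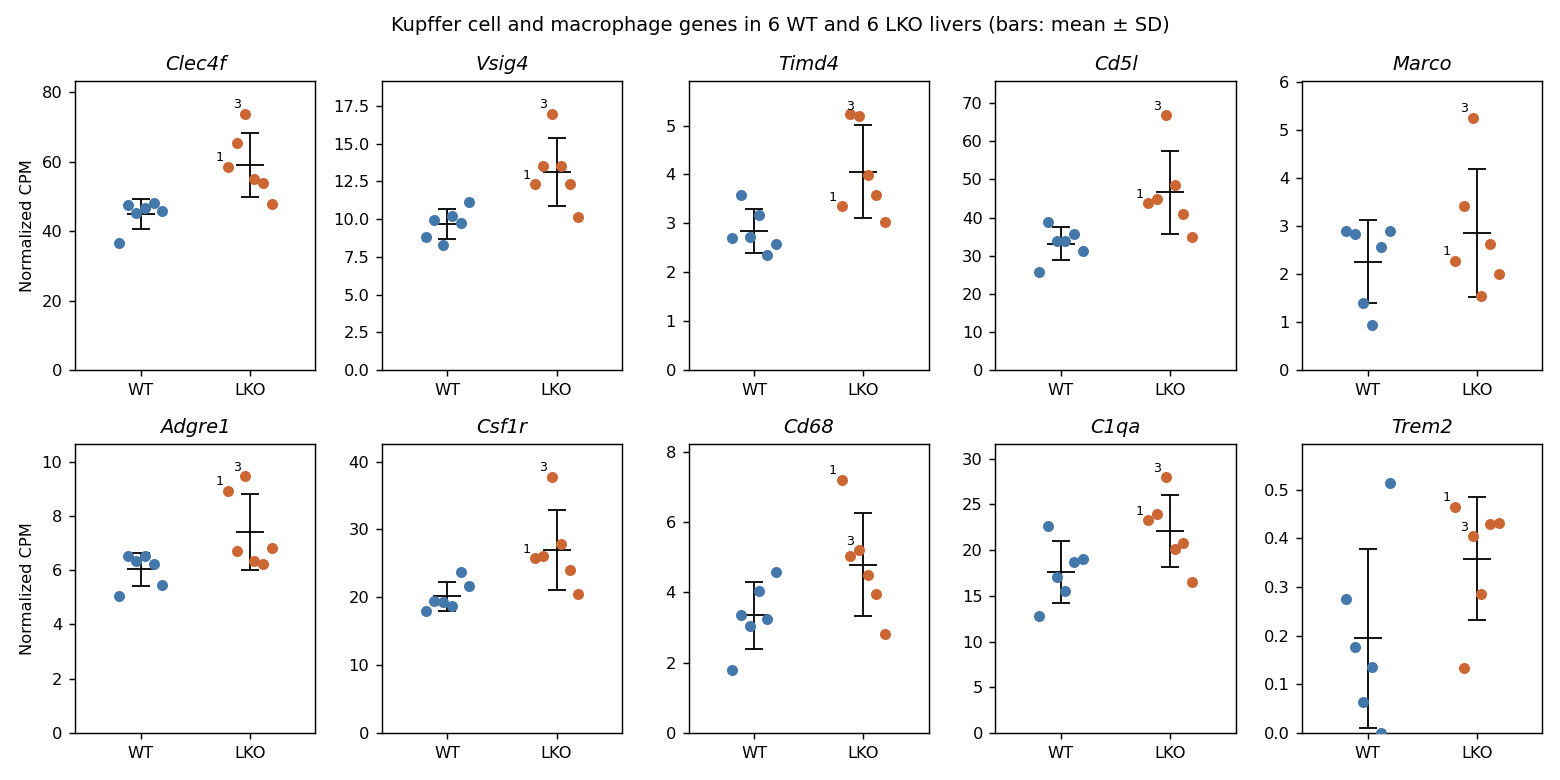
Normalized CPM (vertical axis, from 0) of the 10 genes in each of the 6 WT livers (blue) and 6 LKO livers (orange), with the mean and SD as bars and LKO livers 1 and 3 numbered. The LKO means lie above the WT means in all 10 panels and the points of the groups overlap in all 10.

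Per length of transcript, the genes spanned more than 2 orders of magnitude within WT livers. As CPM per kilobase of exon, WT levels were highest for Clec4f (18.2 ± 1.75, SD, n = 6), C1qa (16.9 ± 3.23) and Cd5l (16.3 ± 2.18), whose ranges overlapped. Vsig4 followed at 6.54 ± 0.677, apart from its neighbours on both sides. Csf1r (3.49 ± 0.367), Cd68 (2.66 ± 0.753), Adgre1 (1.86 ± 0.192), Timd4 (1.31 ± 0.206) and Marco (1.17 ± 0.447) formed a descending series in which each range overlapped the next. Trem2 lay far below at 0.039 ± 0.037. In LKO livers the order of these levels was the same except that Cd5l (22.9 ± 5.35) and C1qa (21.3 ± 3.77) changed places, with overlapping ranges. The defining markers of Kupffer cells were therefore detected in every liver of both groups, and the marker of the lipid-associated state was close to the limit of detection.

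Clec4f (ENSMUSG00000014542, chr6:83644542-83656187) encodes a galactose-binding C-type lectin that in mice is found on Kupffer cells. Its level ran from 36.5 to 48.2 CPM in WT livers (median 46.4) and from 47.8 to 73.8 CPM in LKO livers (median 56.8). In WT livers 5 of 6 values lay within 45.3 to 48.2 CPM and WT liver 1 lay below them, while 5 of 6 LKO livers lay above every WT liver. The log2 fold change was 0.39 (SE 0.10, 95% interval 0.18 to 0.60, adjusted p = 0.114 by edgeR), a fold of 1.31.

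Vsig4 (ENSMUSG00000044206, chrX:96247203-96293438) encodes the complement receptor CRIg, which binds C3 fragments on particles in the blood. It was measured at 8.32 to 11.1 CPM in WT livers (median 9.84) and at 10.2 to 17.0 CPM in LKO livers (median 12.9). Again 5 of 6 LKO livers were above all WT livers and LKO liver 6 lay among them. This came to a log2 fold change of 0.44 (SE 0.11, 95% interval 0.19 to 0.68, adjusted p = 0.120 by edgeR).

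Timd4 (ENSMUSG00000055546, chr11:46810800-46844332) encodes a phosphatidylserine receptor for the uptake of apoptotic cells and is known as a marker of long-lived resident Kupffer cells. WT livers gave 2.36 to 3.59 CPM (median 2.71), from 39 to 61 reads, and LKO livers 3.03 to 5.23 CPM (median 3.78), from 56 to 90 reads. LKO livers 2 and 3 were the highest, and 3 of 6 LKO livers exceeded every WT liver. Its log2 fold change was 0.50 (SE 0.16, 95% interval 0.15 to 0.85, adjusted p = 0.230 by edgeR).

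Cd5l (ENSMUSG00000015854, chr3:87357881-87371073) encodes a protein that macrophages secrete into the blood. Its level was 25.8 to 38.8 CPM in WT livers (median 33.9) and 34.9 to 66.9 CPM in LKO livers (median 44.4). LKO liver 3, at 66.9 CPM, stood well above the next LKO liver at 48.6 CPM, and LKO liver 6 lay within the WT range. The difference was a log2 fold change of 0.49 (SE 0.14, 95% interval 0.20 to 0.78, adjusted p = 0.142 by edgeR), a fold of 1.40.

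The 4 resident genes thus lay within a narrow band of differences, with log2 fold changes from 0.39 to 0.50 and a median of 0.46, a fold of 1.38. For all 4 of them 6 of 6 LKO livers were above the WT mean and p before adjustment was under 0.01. The median was 0.48 without LKO liver 1 and 0.36 without LKO liver 3. The call of these genes depended on the tool. DESeq2 called 3 of the 10 genes higher, beside 1.12% of the genes it gave an adjusted p, namely Clec4f (adjusted p = 0.0260), Vsig4 (adjusted p = 0.0294) and Cd5l (adjusted p = 0.0416).

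**Figure D2:**
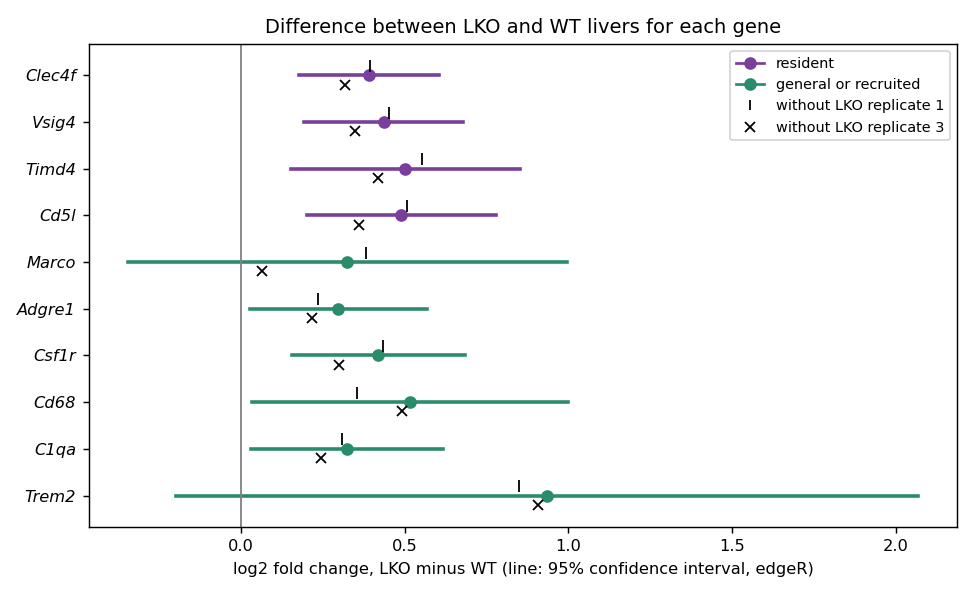
Log2 fold change (LKO minus WT, horizontal axis) of each gene with its 95% confidence interval from edgeR (line), and the value without LKO liver 1 (tick) or without LKO liver 3 (cross). Resident genes are in purple with intervals that all lie above 0, and of the other 6 in green only those of Marco and Trem2 include 0.

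Among the receptors of the other 6 genes, Csf1r (ENSMUSG00000024621), which encodes the receptor for the macrophage growth factors CSF1 and IL-34, had the smallest error. It was measured at 18.0 to 23.7 CPM in WT livers (median 19.4) and at 20.4 to 37.8 CPM in LKO livers (median 25.9). 5 of 6 LKO livers were above all WT livers, with LKO liver 3 the highest. In log2 terms the fold change was 0.42 (SE 0.12, 95% interval 0.16 to 0.68, adjusted p = 0.173 by edgeR). Exons of Csf1r overlap those of Hmgxb3 on the opposite strand, and since the strand setting of the counting is not given in the sources used here, reads of these genes may not be fully told apart.

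Adgre1 (ENSMUSG00000004730, chr17:57358691-57483527) encodes F4/80, the adhesion receptor by which mouse macrophages are most often stained. WT livers gave 5.04 to 6.53 CPM (median 6.29) and LKO livers 6.24 to 9.47 CPM (median 6.76). LKO livers 1 and 3 were well above the rest, and the other LKO livers were at or near the upper end of the WT range. The log2 fold change was 0.30 (SE 0.13, 95% interval 0.03 to 0.57, adjusted p = 0.370 by edgeR), and 0.23 without LKO liver 1.

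Marco (ENSMUSG00000026390, chr1:120474538-120505024) encodes a scavenger receptor that binds bacteria. Levels spread widely within both groups, from 0.942 to 2.90 CPM in WT livers (median 2.70) and from 1.54 to 5.25 CPM in LKO livers (median 2.45). The LKO median was below the WT median, and the mean was raised by LKO liver 3. This came to a log2 fold change of 0.33 (SE 0.31, 95% interval -0.34 to 0.99, adjusted p = 0.738 by edgeR), and 0.06 without LKO liver 3.

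C1qa (ENSMUSG00000036887, chr4:136895917-136898803) encodes a chain of C1q, the first component of the classical complement pathway, which macrophages produce. Its level was 12.8 to 22.6 CPM in WT livers (median 17.9) and 16.5 to 28.0 CPM in LKO livers (median 22.0). 3 of 6 LKO livers exceeded all WT livers. Its log2 fold change was 0.32 (SE 0.14, 95% interval 0.03 to 0.62, adjusted p = 0.365 by edgeR).

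Cd68 (ENSMUSG00000018774, chr11:69664213-69666153) encodes a glycoprotein of macrophage lysosomes. WT livers gave 1.80 to 4.57 CPM (median 3.30) and LKO livers 2.81 to 7.21 CPM (median 4.76). LKO liver 1 was the highest here, and LKO liver 6 lay below the WT mean. The difference was a log2 fold change of 0.52 (SE 0.23, 95% interval 0.03 to 1.00, adjusted p = 0.386 by edgeR), and 0.36 without LKO liver 1.

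Trem2 (ENSMUSG00000023992, chr17:48346401-48354147) encodes a lipid-sensing receptor that signals through the adaptor of Tyrobp. It was covered by 0 to 8 reads per liver in WT (18 in all) and by 2 to 10 in LKO (42 in all). In CPM this was 0 to 0.515 in WT livers (median 0.156) and 0.134 to 0.465 in LKO livers (median 0.417), and no LKO liver exceeded the highest WT liver. In log2 terms the fold change was 0.93 (SE 0.53, 95% interval -0.20 to 2.07, adjusted p = 0.525 by edgeR), so that the interval covers both no difference and a fold of 4.19. At this depth neither could be told from the other.

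Seen by liver, the 10 genes often shared their highest or their lowest liver, while the order of the livers between differed from gene to gene. LKO liver 3 was the highest of its group for 7 of the 10, LKO liver 1 for Cd68 and Trem2, and LKO liver 2 for Timd4. LKO liver 6 was the lowest of its group for 7 of the 10, and WT liver 1 was the lowest of its group for 6 of the 10. Set against the WT mean of each gene, the median over the 4 resident genes was 1.29, 1.42, 1.79, 1.39, 1.24 and 1.06 in LKO livers 1 to 6. The LKO livers thus spanned from almost the WT mean in liver 6 to the highest values of the study in liver 3.

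**Figure D3:**
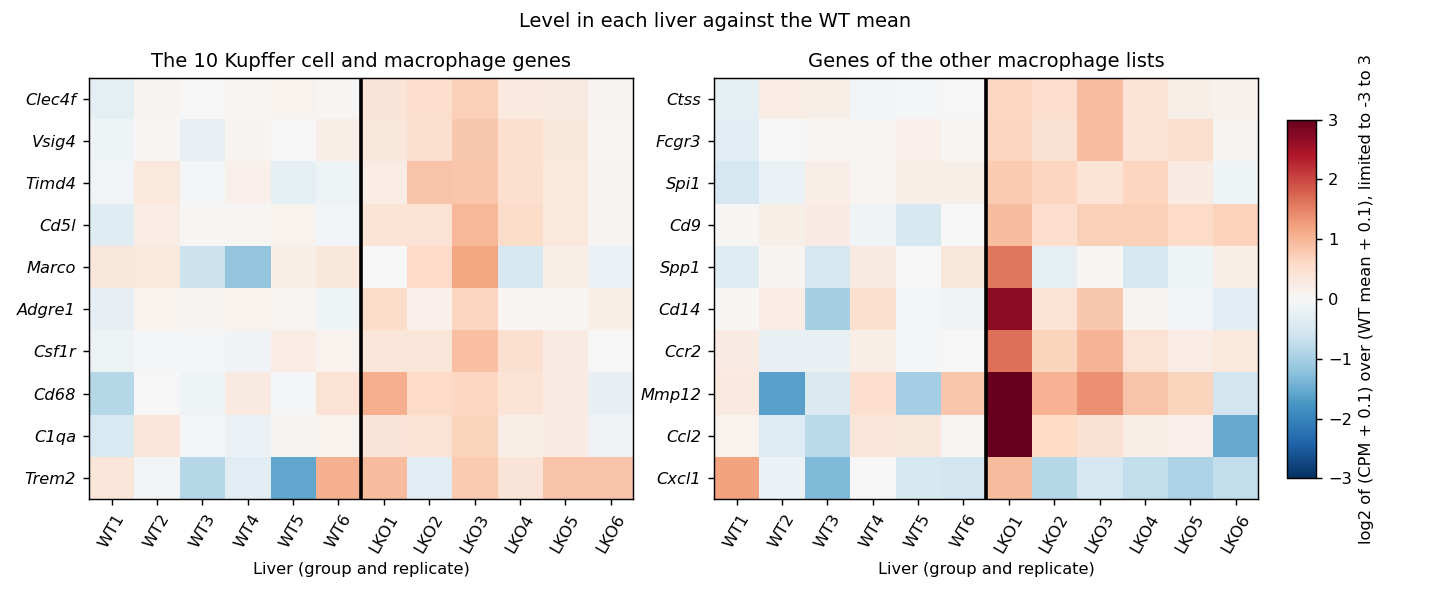
Colour gives log2 of (CPM + 0.1) over (WT mean + 0.1) for each gene (rows) and liver (columns), limited at both ends of the scale, for the 10 genes (left) and for 10 genes of the other macrophage lists chosen after their values were seen (right). On the left LKO liver 3 is the highest LKO liver for 7 of 10 genes, and on the right LKO liver 1 is the highest for Spi1, Cd9, Spp1, Cd14, Ccr2, Mmp12, Ccl2 and Cxcl1.

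The summed CPM of the 4 resident genes was 73.8 to 99.9 in WT livers (median 92.5) and 95.8 to 163 in LKO livers (median 120). For the other 6 genes the sum was 40.8 to 54.9 CPM in WT livers (median 50.7) and 49.0 to 86.1 CPM in LKO livers (median 63.01). The ratio of the first sum to the second was 1.84 ± 0.129 (SD, n = 6) in WT livers and 1.91 ± 0.0936 in LKO livers. These ratios ran from 1.68 to 2.05 and from 1.74 to 2.00, so the LKO range lay within the WT range. With each gene taken per kilobase the ratio was 1.64 ± 0.144 in WT livers and 1.72 ± 0.125 in LKO livers. The balance between resident and broader macrophage transcripts therefore differed by less than the spread between livers. Both sums were higher in most LKO livers. Csf1r (mean 20.1 CPM in WT livers) and C1qa (17.6 CPM) made up most of the second sum, and Trem2 added 0.194 CPM. That sum rests on genes not particular to recruited cells, so the ratio could show little of a shift toward such cells.

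**Figure D4:**
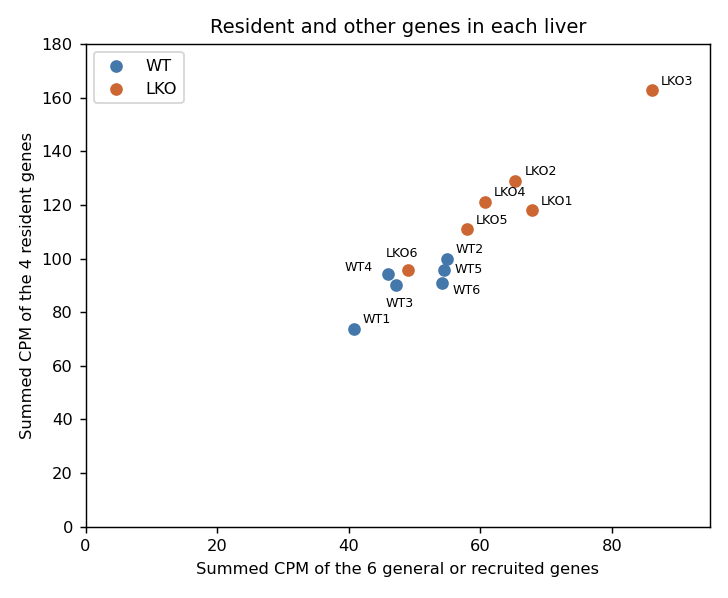
Summed CPM of Clec4f, Vsig4, Timd4 and Cd5l (vertical axis) against summed CPM of the other 6 genes (horizontal axis) in each liver, WT in blue and LKO in orange. 5 of the 6 LKO livers lie above and to the right of all WT livers, from 111 CPM for the resident sum upward, and LKO liver 6 lies among the WT livers.

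With both groups pooled, the genes also varied together around the genotype means. With the genotype means removed, the 6 pairs of resident genes had Pearson r from 0.64 (Vsig4 with Timd4) to 0.89 (Clec4f with Cd5l) over the 12 livers, with a median of 0.71. Pairs of a resident gene with one of the other 6 had a median r of 0.50, from -0.32 (Clec4f with Trem2) to 0.88 (Clec4f with C1qa). The points share libraries, depth and livers, so these values are a description. The genes whose levels most resembled the mean profile of the 4 resident genes, among 12771 genes with a mean of at least 1 CPM, were P2ry13 (r = 0.88), Hinfp (0.86), Sin3b (0.84), Phf2 (0.84), C1qc (0.84), Fam3a (0.83), Ctss (0.83), Ifi27l2a (0.83), C1qa (0.82) and Pqlc1 (0.82). The median r over all genes ranked was 0.01, and 17 genes had r above 0.8. P2ry13 encodes an ADP receptor of myeloid cells, C1qc and C1qa encode chains of C1q, and Ctss encodes a protease of macrophage lysosomes. C1qb, Fcgr3, Csf1r and Sdc3 were also among these 17. In WT livers alone their r was 0.76, 0.70, 0.28 and 0.42, and in LKO livers alone 0.84, 0.85, 0.95 and 0.92. For Csf1r and Sdc3 the likeness thus came mostly from the LKO livers. Hinfp, Sin3b and Phf2 encode nuclear proteins of most cells and had log2 fold changes of 0.03, 0.09 and 0.00, none past the test. Fam3a and Pqlc1 had -0.07 and -0.18, and P2ry13 and Ifi27l2a had 0.26 and 0.20, also none past the test.

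Other genes of Kupffer cell identity mostly had values on the higher side. Of 14 listed, 13 had log2 fold changes above 0, none passed the test, and the median was 0.26, or 0.22 without LKO liver 1. Clec1b, a C-type lectin receptor of platelets and Kupffer cells, ran from 3.15 to 5.13 CPM in WT livers (median 4.22) and from 5.41 to 9.35 CPM in LKO livers (median 6.36). All LKO livers were above all WT livers for Clec1b, beside 0.748% of all genes. Its log2 fold change was 0.72 (SE 0.17, adjusted p = 0.0798 by edgeR). Its r with the mean profile of the resident genes was 0.15, from -0.58 in WT livers alone and 0.51 in LKO livers alone. The scavenger receptor gene Cd163 (log2 fold change 0.28), the ficolin gene Fcna (0.31) and the syndecan gene Sdc3 (0.36) had smaller values, and the iron exporter gene Slc40a1 had 0.14.

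For complement C1q and Fc receptors, 6 of 6 genes had log2 fold changes above 0 and none passed the test, with a median of 0.37 and of 0.31 without LKO liver 1. Fcgr3, an activating receptor for immunoglobulin G, was measured at 2.42 to 3.40 CPM in WT livers (median 3.09) and 3.19 to 5.83 CPM in LKO livers (median 4.24). 5 of 6 LKO livers were above all WT livers for it, and the log2 fold change was 0.53 (SE 0.14, adjusted p = 0.132 by edgeR). C1qb and C1qc, which encode the partner chains of C1qa, had log2 fold changes of 0.37 and 0.29, beside the 0.32 of C1qa itself. Fcgr1, the high-affinity receptor, had 0.52.

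The growth factors and niche signals of macrophages were close to WT values. Of 13 genes none passed the test, and the median log2 fold change was 0.14, or 0.04 without LKO liver 1. The ligands of the CSF1 receptor had log2 fold changes of -0.01 for Csf1 (SE 0.15) and 0.12 for Il34 (SE 0.20). Csf1 ran from 6.07 to 12.5 CPM in WT livers and from 7.12 to 10.7 CPM in LKO livers, so that the LKO range lay within the WT range. Spi1, which encodes PU.1, ran from 1.59 to 2.67 CPM in WT livers (median 2.52) and from 2.11 to 4.09 CPM in LKO livers (median 3.40). Its log2 fold change was 0.48 (SE 0.18, adjusted p = 0.307 by edgeR), and 0.39 without LKO liver 1. Dll4, a Notch ligand of the sinusoid, had 0.30, and Gdf2, which encodes BMP9, had 0.23.

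Among the macrophage lists, genes of TREM2 signalling and the lipid-associated state held the calls. Of 12 tested, 11 had log2 fold changes above 0 and 2 were called higher, Cd9 and Fabp5, beside 0.274% of all genes. Cd9 encodes a tetraspanin of many cell types. It rose from 12.9 to 21.2 CPM in WT livers (median 18.4) to 25.8 to 34.9 CPM in LKO livers (median 29.3). The groups did not overlap, beside 0.748% of all genes with every LKO liver higher. The log2 fold change of Cd9 was 0.71 (SE 0.11, adjusted p = 0.00812 by edgeR). Fabp5, a fatty acid binding protein that macrophages, hepatocytes and other cells can express, rose from 31.9 to 95.9 CPM in WT livers (median 38.9) to 92.7 to 255 CPM in LKO livers (median 143). Its groups overlapped only through WT liver 2, and its log2 fold change was 1.73 (SE 0.28, adjusted p = 0.0119 by edgeR). Both genes lay far above Trem2 in CPM and kept their call in every alternative fit.

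Of the genes of this list that are more particular to macrophages, Gpnmb and Mmp12 had few reads in most livers. Tyrobp, the signalling adaptor of TREM2, ran from 2.89 to 3.61 CPM in WT livers and from 3.14 to 6.47 CPM in LKO livers. Its log2 fold change was 0.54 (SE 0.17, adjusted p = 0.211 by edgeR), and 0.43 without LKO liver 1. Gpnmb, a glycoprotein of lipid-laden macrophages, had 0 to 5 reads in WT livers and 3 to 27 in LKO livers, the highest of these in LKO liver 1. Its log2 fold change was 1.59, and 0.89 without that liver. Mmp12, a macrophage metalloelastase, had 0 to 7 reads in WT livers and 82 in LKO liver 1, and its log2 fold change went from 2.33 to 1.08 without that liver. Spp1, which encodes osteopontin and is also made by cholangiocytes, had 0.35 with LKO liver 1 and -0.12 without it. Atp6v0d2 was the only gene of the list below 0 over all livers, at -0.59 (SE 0.45, adjusted p = 0.659 by edgeR). It had -1.05 without LKO liver 1. The median of the list was 0.67 with that liver and 0.55 without it, or 0.59 when Hcst, whose WT livers all held 3 reads or fewer, was set to its bound.

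Scavenger and efferocytosis receptors were divided. Of 10 tested none passed, 7 had log2 fold changes above 0, and the median was 0.10. Axl, a receptor for the clearance of apoptotic cells, ran from 9.40 to 12.1 CPM in WT livers and from 11.5 to 19.1 CPM in LKO livers, with a log2 fold change of 0.48 (SE 0.11, adjusted p = 0.0676 by edgeR). Cd36, a fatty acid transporter of hepatocytes, macrophages and endothelium, ran from 10.0 to 46.7 CPM in WT livers (median 14.5) and from 25.5 to 94.0 CPM in LKO livers (median 47.6). Its log2 fold change was 1.46 (SE 0.40, adjusted p = 0.134 by edgeR), and it passed the test when WT liver 3, the highest of its group, was left out (1.94, adjusted p = 0.0104). Lrp1, a lipoprotein receptor abundant in hepatocytes, had -0.36 (adjusted p = 0.0809 by edgeR). Mrc1, the mannose receptor of Kupffer and sinusoidal endothelial cells, had 0.14.

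Genes of macrophages and phagocytes at large followed the 10 genes in direction. Of 18 tested 18 had log2 fold changes above 0 and none passed, with a median of 0.44 and of 0.34 without LKO liver 1. Ctss ran from 12.4 to 17.9 CPM in WT livers (median 15.0) and from 16.8 to 29.3 CPM in LKO livers (median 21.5), with a log2 fold change of 0.50 (SE 0.13, adjusted p = 0.126 by edgeR). The leukocyte gene Ptprc had 0.46 and the oxidase gene Cybb also 0.46. Mpeg1, a pore-forming protein of phagocytes, had 0.28, and Lcp1, an actin-bundling protein of leukocytes, had 0.09. Cd14, the co-receptor for lipopolysaccharide, had 1.10 with LKO liver 1 and 0.24 without it, since that liver held 234 reads against 23 to 50 in the other LKO livers.

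**Figure D5:**
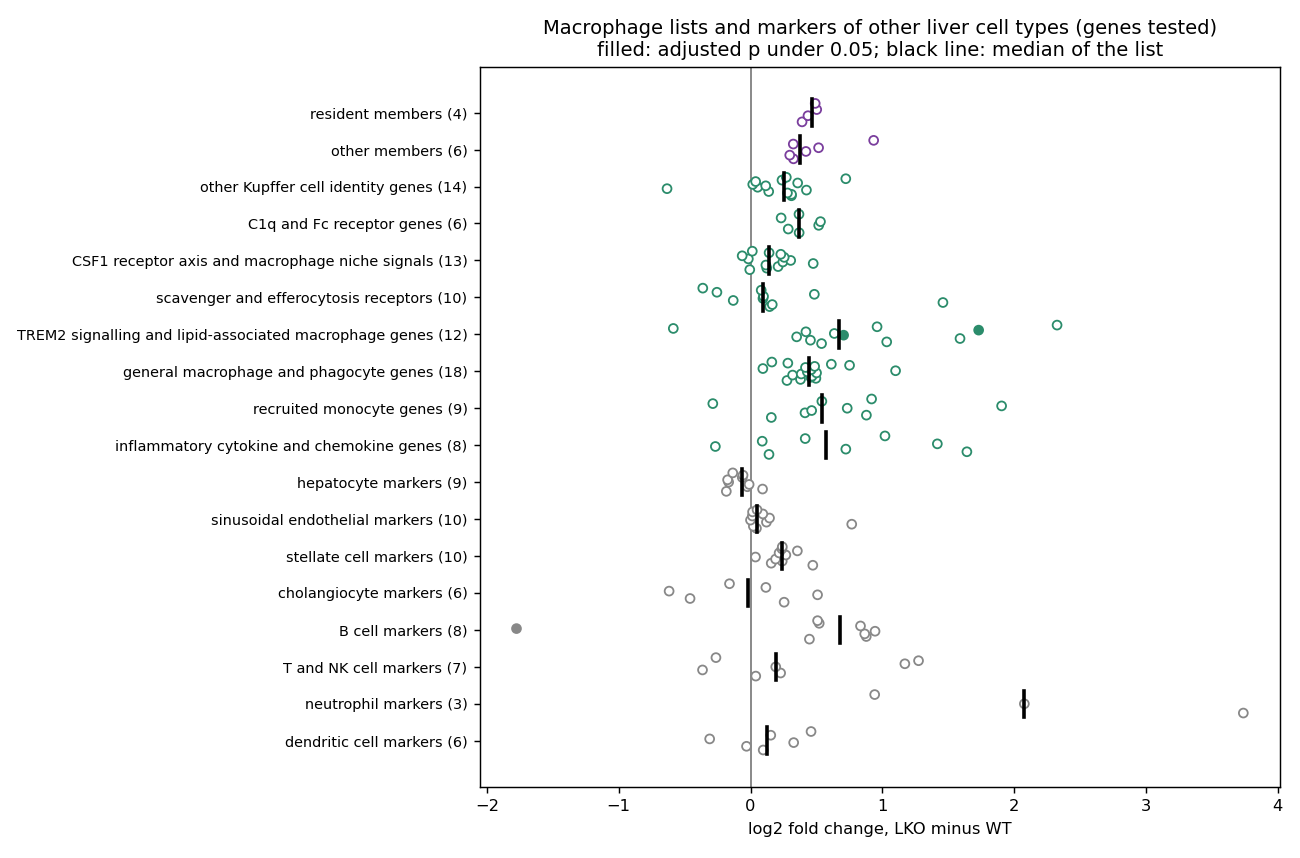
Log2 fold change (LKO minus WT, horizontal axis) of every tested gene in each list (number tested in brackets), with the 10 genes in purple, macrophage lists in green, markers of other cell types in grey, list medians as black lines and genes past an adjusted p of 0.05 filled. Filled points are Cd9 and Fabp5 on the higher side and Ighm on the lower side, and the medians of hepatocyte, sinusoidal endothelial and cholangiocyte markers lie near 0.

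The median of the recruited monocyte genes rested on LKO liver 1, though not every gene did. Of 9 tested 8 had log2 fold changes above 0 and none passed, and the median of 0.54 became 0.09 without that liver. Ccr2, the receptor that brings monocytes out of the marrow, had 0.88 (SE 0.27, adjusted p = 0.189 by edgeR) and 0.60 without that liver. Plac8 had 0.46 (SE 0.22, adjusted p = 0.428 by edgeR) and 0.35 without that liver. F13a1, a coagulation factor gene of monocytes, had 1.90 with that liver and 0.07 without it, and Vcan 0.92 and 0.09. Ly6c2, the surface antigen gene of classical monocytes, had 0.16 and -0.60 without that liver, from 13 reads or fewer in every liver. Fn1, which hepatocytes make in large amount, made up most of the CPM of the list and had -0.29.

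Inflammatory cytokine and chemokine genes ranged from no more than a few reads to well covered genes such as Il18, with 103 to 202 reads per liver, and Cxcl1, with 54 to 368. Of 14 listed 8 could be tested, and Il6, Nos2 and Il10 had 3 reads or fewer in every liver. None of the 8 passed, and the median log2 fold change of 0.57 became 0.18 without LKO liver 1. Ccl2, the monocyte chemokine, had 51 reads in LKO liver 1, and its log2 fold change went from 1.64 to 0.16 without that liver. Cxcl2 went from 1.42 to 0.70 and Il1b from 0.14 to -0.71. Il18, which Kupffer cells and hepatocytes express, had 0.09. Cxcl1 had -0.27, and -0.75 without LKO liver 1 (adjusted p = 0.411 by edgeR).

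LKO liver 1 was the highest of its group for 23.5% of all tested genes. It was so for 11 of 18 general macrophage genes, 9 of 12 genes of the TREM2 list and 7 of 9 monocyte genes. Shares were also higher for inflammatory (5 of 8) and niche genes (7 of 13) and for neutrophil (3 of 3) and stellate cell markers (5 of 10). Cholangiocyte and sinusoidal endothelial markers had 3 of 6 and 4 of 10, and scavenger receptors 3 of 10. The 4 resident genes had 0, the other 6 had 2, other Kupffer cell identity genes 1 of 14, and C1q and Fc receptor genes 1 of 6. Hepatocyte markers had 1 of 9, and B cell, T and NK cell and dendritic cell markers had 0. What set this liver apart was not tested.

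Markers of the other cells of the liver had list medians below the 0.43 of the 10 genes, apart from B cells (0.68) and neutrophils (2.08). The hepatocyte markers summed to 98633 to 122385 CPM in WT livers and 90598 to 101689 CPM in LKO livers, and 8 of 9 had log2 fold changes below 0, with a median of -0.06. Albumin (Alb) had -0.18 (SE 0.08, adjusted p = 0.413 by edgeR). The sinusoidal endothelial markers, which share the niche of Kupffer cells, had a median of 0.05 over 10 genes, with Stab2 at 0.04 and Lyve1 at 0.77 (adjusted p = 0.103 by edgeR). The stellate cell markers had a median of 0.24, or 0.19 without LKO liver 1, with 10 of 10 above 0 and none past the test. Their sum was 223 to 336 CPM in WT livers and 268 to 389 CPM in LKO livers. Lrat, the retinol-esterifying enzyme of stellate cells, had 0.47, and 0.35 without LKO liver 1. Cholangiocyte markers had a median of -0.02. The part of these cells in the values of the 10 genes was not tested.

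Neutrophil markers had few reads, and their values lay on the higher side in LKO livers, with none of 3 tested past the threshold. S100a8 had 0 to 2 reads in WT livers and 4 to 38 in LKO livers, at least 3.37-fold higher when each WT liver is set to 3 reads and at least 2.16-fold higher without LKO liver 1, with an adjusted p of 0.0623 by edgeR. S100a9 had 1 to 5 reads in WT livers and 6 to 47 in LKO livers (log2 fold change 2.08, adjusted p = 0.118 by edgeR). The groups did not overlap for either gene, beside 0.748% of all genes with every LKO liver higher. LKO liver 1 was the highest for both, and without it the log2 fold change of S100a9 was 1.50. Ly6g and Mpo, which define neutrophils and their precursors, had 3 reads or fewer in every liver. The summed CPM of the 8 neutrophil markers was 0.838 to 1.54 in WT livers and 1.81 to 7.16 in LKO livers, or up to 4.79 without LKO liver 1.

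Lymphocyte markers differed in direction among themselves. Ighm, which encodes the heavy chain of immunoglobulin M, fell from 14.2 to 22.9 CPM in WT livers (median 18.0) to 4.38 to 6.32 CPM in LKO livers (median 5.28), with no overlap. Its log2 fold change was -1.78 (SE 0.12, adjusted p = 4.06e-06 by edgeR), beside 0.154% of all genes called lower and 0.554% with every LKO liver below every WT liver. The other 7 of 8 B cell markers had log2 fold changes above 0, among them Cd79a at 0.45 (SE 0.45), and none of these 7 passed. T and NK cell markers had a median of 0.19 over 7 tested genes, with Cd3e at 0.04, and dendritic cell markers 0.12 over 6, with Flt3 at 0.10. None of these passed the test.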

How the data were processed

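Liver mRNA of 6 WT and 6 LKO mice was measured. Per the labels and the study's methods, the libraries were made by the authors with the KAPA mRNA HyperPrep kit and read on a HiSeq 4000. Trimmomatic 0.36 was used for trimming, HISAT2 2.1.0 for alignment to Ensembl 93 (GRCm38.p6) and HTSeq 0.6.1 for counting. What the authors deposited are raw counts of reads per gene. The strand setting is not given in the sources used here. Reads that fit several genes are usually left out by such counting, and without strand, overlapping genes can share reads.

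GENCODE M21 (GRCm38) gave names, positions and exon lengths for 54165 of the 54232 gene IDs. The hepatocyte marker Tf had no match by symbol. A gene was tested when 6 livers or more each held over 2 reads (17509 genes). Counts were scaled by TMM, and edgeR 4.0.16 (R 4.3.3) tested the genotype by quasi-likelihood, on both sides. The p-values of all tested genes were adjusted together by Benjamini-Hochberg, with a threshold of 0.05. Intervals are at 95%. The fits were tested on simulated data. Alternatives were limma-voom (limma 3.58.1), the test of the study, DESeq2 1.42.0, other scalings and filters, a replicate block and leaving out each liver. Genes at 3 reads or fewer in all WT livers were given a bound. With depths of 14860414 to 22111926 counts per liver, 3 reads amount to about 0.2 CPM or less. The livers are separate mice, but littermates.

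Livers with the same number in both groups were not taken as pairs: nothing states that they are, and the correlations of their deviations from the group means ran from -0.06 to 0.14, with 4 of 6 above 0.1. The 10 genes and all lists were chosen with earlier results of these data known. The genes named are the 10, in each list those past the threshold, in each macrophage list also the 2 with the largest log2 fold change in size and the 2 with the highest mean CPM, the first marker written for each other cell type, the 10 genes most like the resident ones, and Marchf6. Further genes named were chosen after their values were seen. 1 gene of the Kupffer cell identity list that this rule names is not reported here.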

Additional observations from a re-analysis of the deposited data

Results flagged for a closer look

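A liver was held to stand apart from its group of 6 where its gap to the nearest other liver was more than 0.625 of the group's range (Dixon's 95% critical value). Of 125 groups of values examined 14 did so, and 6 of the 14 were LKO liver 1. For unselected, independent groups chance would give about 6.25. Some of the genes were named for large log2 fold changes in these data, which 1 high liver can produce, and genes vary together. No excess can therefore be read from these counts, which are a description. 1 further group at 3 reads or fewer was left out.

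WT liver 1 was the lowest of its group for Clec4f, at 36.5 CPM against 45.3 to 48.2 CPM (gap 0.753 of the range), for the summed resident genes, at 73.8 CPM against 90.2 to 99.9 CPM (gap 0.627), and for Fcgr3, at 2.42 CPM against 3.06 to 3.40 CPM (gap 0.652). It was the highest of its group for Cxcl1, at 20.3 CPM against 3.43 to 8.82 CPM (gap 0.681).

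LKO liver 1 was the highest of its group for 6 genes. Cd14 stood at 10.9 CPM against 1.24 to 2.89 CPM (gap 0.830), Spp1 at 114 CPM against 26.4 to 43.6 CPM (gap 0.804), and Mmp12 at 3.81 CPM against 0.108 to 0.693 CPM (gap 0.842). The monocyte gene F13a1 stood at 2.28 CPM against 0 to 0.342 CPM (gap 0.850). The chemokine genes Ccl2, at 2.37 CPM against 0 to 0.335 CPM (gap 0.859), and Cxcl1, at 17.1 CPM against 4.52 to 6.12 CPM (gap 0.873), did likewise.

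In WT livers, Cd36 in liver 3 was 46.7 CPM against 10.0 to 17.7 CPM (gap 0.791), Fabp5 in liver 2 was 95.9 CPM against 31.9 to 47.6 CPM (gap 0.755), and Mpeg1 in liver 2 was 108 CPM against 53.2 to 71.5 CPM (gap 0.668). Flt3 in LKO liver 5 was 0.473 CPM against 0.201 to 0.289 CPM (gap 0.678). What sets these livers apart was not tested.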

How the results depend on the processing

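None of the 10 genes passed in any alternative except DESeq2, where 3 did. DESeq2 called 351 genes (181 higher, 170 lower), and in the lists it called 1 other Kupffer cell identity gene (Clec1b), 1 C1q or Fc receptor gene (Fcgr3), 2 scavenger receptors (Axl and Lrp1), 2 general macrophage genes (Ctss and Ptprc), 1 sinusoidal endothelial marker (Lyve1) and 2 neutrophil markers (S100a8 and S100a9). Without a filter on low counts 114 genes passed (79 higher), with 1 scavenger receptor (Axl) and 1 neutrophil marker (S100a8). With the replicate number as a block, which is not a known pairing, 1 Kupffer cell identity gene (Clec1b, adjusted p = 0.0437 by edgeR) and 1 neutrophil marker (S100a8) passed and none of the 10 genes did.

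Leaving out each liver gave 38 (without WT liver 5) to 132 genes (without WT liver 3), 26 to 83 higher and 12 to 49 lower, with 0 to 2 scavenger receptors (Cd36 and Lrp1 without WT liver 3, Axl without LKO liver 6), 0 to 1 neutrophil markers (S100a8 without LKO liver 6) and 0 to 1 sinusoidal endothelial markers (Lyve1 without LKO liver 4). The resident median ran from 0.36 to 0.53 and that of the other 6 from 0.27 to 0.45. Signs turned for genes near 0 or resting on single livers: Phf2 (-0.028 to 0.031, also -0.0033 with DESeq2 and -0.0017 with RLE scaling), Hinfp (-0.025 to 0.080), Cd3e (-0.083 to 0.33), Flt3 (-0.17 to 0.63), Spp1 (-0.12 to 0.47) and Cxcl1 (-0.75 to 0.17). Trem2 was not tested with at least 10 reads in every liver. Another scaling moved the median of all genes by at most 0.02.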
